A study of Mus musculus with 10 samples.

Results

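Spleen tumors of mice carrying the Cbfb::MYH11 fusion were compared with cKit+ bone marrow cells of wild type (WT) mice by RNA sequencing of bulk cells, and the genes that this acute myeloid leukemia (AML) gained and lost are described here. The comparison took 4 of the 10 libraries of the series by their titles: 2 tumors, INV16_30 and INV16_27 (called tumor 30 and tumor 27), and 2 WT marrows, WT_BM1 and WT_BM2 (called WT 1 and WT 2). All genes were followed, and 14866 of 50507 gene symbols had enough counts to be tested. The WT libraries came from female C57BL/6 mice, with cKit+ as the labelled cell selection and no allele or agent named. The tumor libraries came from the spleens of female C57BL/6 mice of the genotype "Mx+; Hygr+" that received Poly IC at postnatal day 45. In the study's methods these animals carried Mx-1 Cre, a recombinase switched on by interferon in blood cells and several other tissues, with the floxed knock-in allele Cbfb+/56M, and Poly(I:C) started expression of the fusion. The methods give Poly(I:C) to littermate controls as well, and the sources used here do not state if the WT mice sequenced had received it. The methods describe bead selection of tumor cells by cKit, Gr1 or CD11b. The label of tumor 27 reads cKit+ and that of tumor 30 reads "cKit_", with its last character not explained. All cells were thawed from frozen stocks before RNA was extracted. The other 6 libraries, C57BL/6 spleen tumors labelled untreated and selected by Mac1/Gr1/cKIT, entered the same fit and serve here as a second reference. They were 3 MLL::AF9 tumors of MLL-AF9 +/- mice and 3 MLL::ENL tumors, grown in the study's methods from retrovirally transduced marrow progenitors in irradiated hosts. The names of MLL::AF9 tumors 42 and 47 are interchanged between the sample labels and the deposited data, and they are called here by their labels. Tissue, fusion and Cre go with condition in the comparison with WT, as does Poly IC by the labels, and these cannot be told apart.

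The CBFB protein pairs with RUNX proteins, chiefly RUNX1 in blood stem cells, and holds them on DNA at genes of myeloid and lymphoid development. The fusion joins most of CBFB to the coiled tail of smooth muscle myosin, and the product, CBFB-SMMHC, keeps RUNX1 in a complex that no longer works as the normal one does. In people it arises by inversion 16 and marks a leukemia with abnormal eosinophils. Mast cells and basophils, which appear in the results below, are blood cells that carry the high affinity receptor for immunoglobulin E and store amines and proteases in granules. Mast cells need KIT and GATA2 for their development.

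The quasi-likelihood F-test of edgeR was fitted once to all 10 libraries. A gene with a Benjamini-Hochberg adjusted p under 0.05 counts as called, and all adjusted p below come from that fit. Levels are CPM, counts relative to the library total after scaling by the trimmed mean of M values (TMM). A difference is given as log2 fold change, tumors minus WT, with its standard error (SE). The fit called 525 genes higher in the tumors (3.53% of those tested) and 1029 lower (6.92%), 1554 in both directions (10.5%). Against the MLL tumors it called 1847 higher (12.4%) and 1959 lower (13.2%). Xist, a transcript of female cells, had 33.8 and 78.2 CPM in WT 1 and WT 2 and 853 and 181 CPM in tumors 30 and 27. It had 172 CPM in AF9 tumor 42 and 0.249 to 2.51 CPM in the other MLL tumors. The part of sex in comparisons with the MLL tumors was not tested. In all 525 and all 1029 called genes the 2 tumors lay on one side of the 2 WT libraries, as they did in 9034 of the 14866 genes tested. The median log2 fold change over all genes tested was -0.01. With 2 libraries a group, calls were sensitive to single libraries. Without WT 1, WT 2, tumor 30 or tumor 27 the fit called 495, 632, 699 and 412 genes, and 291 of the 1554 genes kept the call in all 4 omissions, 56 higher and 235 lower. The word "kept" marks these genes below. Values of a gene are given for WT 1 and then WT 2, and for tumor 30 and then tumor 27. Totals were 17953824 and 20510574 counts for WT 1 and WT 2, 17455304 and 17171480 for tumors 30 and 27, and 12134917 to 19345838 for the MLL tumors. Hemoglobin genes took 14.4% and 3.98% of the counts in WT 1 and WT 2 and 0.403% and 0.958% in tumors 30 and 27. S100a8 and S100a9, the calprotectin genes of neutrophils, took 5.22% and 3.72% in WT and 0.00954% and 0.0028% in the tumors. Mitochondrial transcripts took 0.766% and 1.32% in WT, 6.93% and 3.51% in tumors 30 and 27, and 2.23% to 10.6% in the MLL tumors. The samples are bulk cells, so fewer cells of a type and less RNA per cell cannot be told apart anywhere below.

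**Figure D1:**
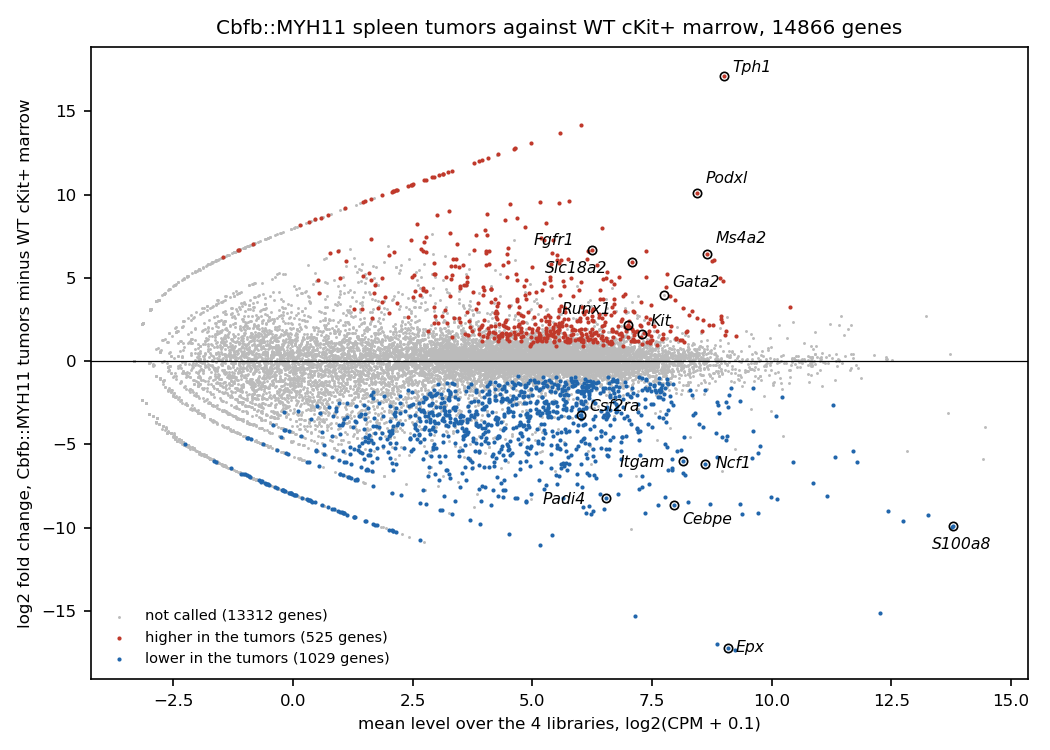
Log2 fold change of tumors against WT (vertical axis) by mean level over the 4 libraries (horizontal axis, log2 of CPM + 0.1), 1 point a gene. The 525 genes called higher (red) include Tph1, Podxl and Ms4a2, and the 1029 called lower (blue) include Epx, S100a8, Cebpe and Itgam. Gata2 and Kit lie above 0 among the genes not called (grey). Fold changes of genes at 0 in a group, which lie on the outer arcs, depend on the count added by the fit and are not bounds.

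Ms4a2, Podxl, Gata2 and Itgam, taken as markers of these tumors, separated the groups in every library. Ms4a2 encodes the beta chain of the immunoglobulin E receptor and had 9.79 and 8.4 CPM in WT and 841 and 747 CPM in the tumors (log2 fold change 6.45, SE 0.66, adjusted p = 0.000754). Podxl encodes podocalyxin, a sialomucin of stem cells, vessel walls and kidney podocytes, and had 0 and 1.16 CPM in WT and 662 and 723 CPM in the tumors (log2 fold change 10.07, SE 1.17, adjusted p = 0.00122). Itgam encodes CD11b, the integrin chain of granulocytes and monocytes, and had 462 and 647 CPM in WT and 11.3 and 6.04 CPM in the tumors (log2 fold change -5.99, SE 0.74, adjusted p = 0.00177). These 3 genes kept their calls. Gata2, a zinc finger factor of stem cells and mast cells, had 27.6 and 24.6 CPM in WT and 376 and 431 CPM in the tumors and was not called (log2 fold change 3.95, SE 1.44, adjusted p = 0.11), although both tumors stood far above both WT libraries. The MLL tumors, which share the estimate of spread, ranged from 0.991 to 69.9 CPM, and against them Gata2 passed (log2 fold change 4.73, adjusted p = 0.00647). Kit, the stem cell factor receptor on which the WT cells and tumor 27 were selected, had 65.6 and 88.6 CPM in WT and 187 and 289.7 CPM in the tumors and was just outside the threshold (log2 fold change 1.63, SE 0.46, adjusted p = 0.0513). Tumor 30 with its unclear label was thus above both selected marrows for Kit.

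Mast cell genes formed the clearest gain. Of 34 mast cell and basophil genes, 29 were tested, 10 were higher in the tumors, 4 lower and 15 did not pass, with a median log2 fold change of 3.1. In the comparison with the MLL tumors 21 were higher and 2 lower. The list summed to 2948 and 2794 CPM in WT and 6549 and 8545 CPM in the tumors. The number called higher was 6 without WT 1, 6 without WT 2, 7 without tumor 30 and 6 without tumor 27, and the number called lower 2 without WT 1, 2 without WT 2, 1 without tumor 30 and 1 without tumor 27. Promoters are shown for the pair of called genes with the lowest adjusted p, as 250 bases before and 50 after the start site in RefSeq (GRCm38.p6, the assembly of mm10), with AGATAA, a core motif of GATA factors, in capitals on either strand (TTATCT where it lies on the other strand).
Slc18a2 promoter (chr19:59260628-59260927, plus strand): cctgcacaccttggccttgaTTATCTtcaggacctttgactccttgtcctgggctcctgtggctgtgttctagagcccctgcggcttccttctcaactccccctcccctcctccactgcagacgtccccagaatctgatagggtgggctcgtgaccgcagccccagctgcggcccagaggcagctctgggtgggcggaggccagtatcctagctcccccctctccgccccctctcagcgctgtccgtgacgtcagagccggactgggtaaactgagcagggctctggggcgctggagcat
Ms4a2 promoter (chr19:11623670-11623969, minus strand): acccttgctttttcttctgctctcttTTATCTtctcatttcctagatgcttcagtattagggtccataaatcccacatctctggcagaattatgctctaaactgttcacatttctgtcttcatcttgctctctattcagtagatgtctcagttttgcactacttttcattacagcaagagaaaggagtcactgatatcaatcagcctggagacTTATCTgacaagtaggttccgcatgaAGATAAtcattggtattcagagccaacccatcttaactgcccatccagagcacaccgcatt
The Slc18a2 window holds 1 match, starting at base -230 from the start site, and the Ms4a2 window 3, at -224, -37 and -11. The motif is held by 11.2% of all 32851 RefSeq promoters, and by 7.04% of those of genes tested. RUNX (TGTGGT) and C/EBP (TTNNGCAA) letters, held by 16.8% and 10.8% of all promoters on either strand, were in neither window. A match of letters is a description and shows no binding.

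The receptor for immunoglobulin E changed in its parts. The alpha chain Fcer1a, which binds the antibody, had 14.8 and 11 CPM in WT and 683 and 1007 CPM in the tumors (log2 fold change 6.03, SE 0.44, adjusted p = 0.00181, kept) and was at 0 in all 6 MLL tumors. The beta chain Ms4a2 rose with it, as given above. The gamma chain Fcer1g, which is shared with receptors for immunoglobulin G on neutrophils and monocytes, went the other way, from 376 and 258 CPM in WT to 22.9 and 22.8 CPM in the tumors (log2 fold change -3.79, SE 0.7, adjusted p = 0.00967). Proteases also changed in both directions. Mcpt1 and Mcpt2 are chymases of mucosal mast cells. Mcpt1 had no count in either WT library and 109.9 and 80.6 CPM in tumors 30 and 27, at least 517-fold higher than the floor of 3 counts per WT library, and no MLL tumor had a count. Mcpt2 had 0.158 and 0.251 CPM in WT and 47.2 and 67.2 CPM in the tumors (log2 fold change 8.04, SE 0.86, adjusted p = 0.00201, kept). Cma1, another mast cell chymase, had 3 and 1 counts in WT and 1358 and 2508 counts in the tumors, a ratio of 859 tumors to WT with a 95% counting interval of 335 to 3154. The basophil proteases were lower. Prss34 had 206 and 74.2 CPM in WT and 0.258 and 0.232 CPM in the tumors (log2 fold change -9.11, SE 1.22, adjusted p = 0.00222, kept). Mcpt8 had 54.9 and 23.5 CPM in WT and 3.14 and 1.34 CPM in the tumors (log2 fold change -4.12, SE 1.12, adjusted p = 0.0449). Ctsg, the cathepsin of neutrophil and mast cell granules, was lower too, at 917 and 1125 CPM in WT and 29.8 and 45.2 CPM in the tumors (log2 fold change -4.77, SE 1.15, adjusted p = 0.0295). Cpa3 (19.4 and 17.6 CPM in WT, 225 and 329.9 CPM in tumors 30 and 27) and Hdc, which makes histamine (223 and 286 and 177 and 457 CPM), did not pass (adjusted p = 0.275 and 0.928), and neither did Gata2 and Kit. The mast cell tryptases Tpsab1 and Tpsb2 had no count in either tumor. Leaving out any 1 of the 4 libraries ended the call of Mcpt8 (adjusted p 0.0844 to 0.234) and Ctsg (adjusted p 0.0884 to 0.172). Single omissions ended the call of Fcer1g (adjusted p 0.0708 without tumor 30 and 0.0829 without tumor 27) and Cma1 (adjusted p 0.0548 without WT 1, 0.0607 without WT 2 and 0.055 without tumor 27). Omission of an MLL library from the shared fit ended the call of Mcpt8 (adjusted p 0.0557 without AF9 tumor 42).

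Among the amine genes of the list, Tph1 and Slc18a2 were higher. Tph1, the first enzyme of serotonin synthesis outside the brain, lies on chromosome 7 from 46644641 to 46672537 (mm10) and had no count in WT. It reached 432 and 1614 CPM in tumors 30 and 27, at least 5548-fold above the floor of 3 counts per WT library. At most 0.632 CPM was measured in an MLL tumor. Tumor 27 had the higher level, and the call was kept. Slc18a2, which loads histamine and serotonin into granules, had 4.9 and 3.87 CPM in WT and 326 and 206 CPM in the tumors (log2 fold change 5.93, SE 0.38, adjusted p = 0.000299, kept) and 0.991 to 1.56 CPM in the MLL tumors. Among mast cell factors and cytokines, Mitf had 1.82 and 2.06 CPM in WT and 12.9 and 19.2 CPM in the tumors (log2 fold change 3.05, SE 0.67, adjusted p = 0.0202). Il13, a cytokine of mast cells and helper T cells, had no count in WT and 5.41 and 5.17 CPM in the tumors, at least 28.7-fold above the floor. The called gains thus held the alpha and beta chains of the receptor, 3 chymases and 2 amine genes, while both basophil proteases were lower. The call was lost with any 1 of the 4 libraries left out for Mitf (adjusted p 0.0539 to 0.153) and Il13 (adjusted p 0.115 to 0.151).

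**Figure D2:**
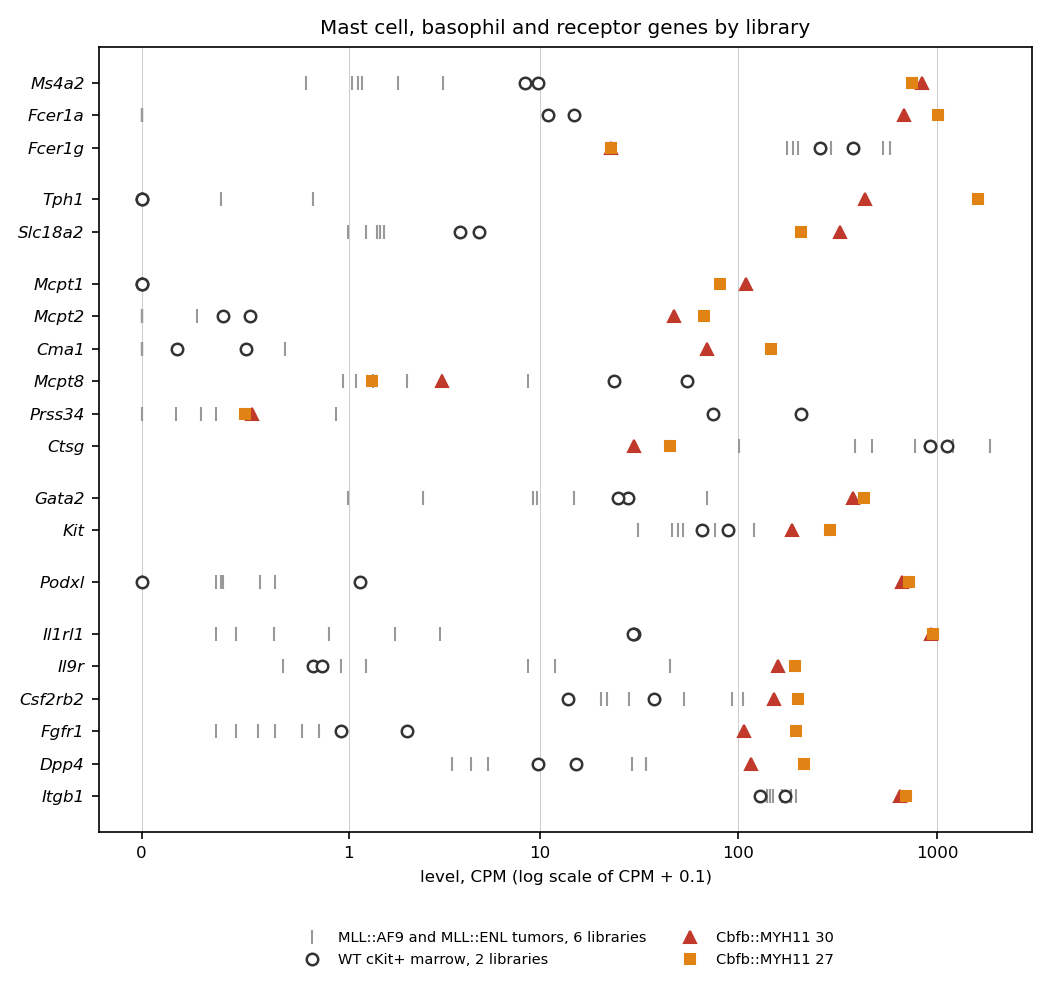
Level of 20 genes in each library (horizontal axis, CPM on a log scale of CPM + 0.1). Open circles are the 2 WT marrows, the triangle is tumor 30, the square tumor 27 and grey ticks the 6 MLL tumors. Both tumors lie to the right of WT for Ms4a2, Fcer1a, Tph1, Slc18a2, Mcpt1, Mcpt2, Cma1, Podxl, Il1rl1, Il9r, Csf2rb2, Fgfr1, Dpp4, Itgb1, Gata2 and Kit and to the left for Fcer1g, Mcpt8, Prss34 and Ctsg.

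Runx1, the DNA-binding partner of CBFB, was higher in the tumors. Of 13 core binding factor genes and partners, 12 were tested, 3 were higher, 0 lower (0 at p under 0.05 unadjusted, with DESeq2 and with limma voom), and 9 did not pass. Runx1 had 37.6 and 54.4 CPM in WT and 193 and 227 CPM in the tumors (log2 fold change 2.19, SE 0.32, adjusted p = 0.00362, kept), and 53 to 82.7 CPM in the MLL tumors. Runx1t1, a corepressor known as ETO, had 0.237 and 0.503 CPM in WT and 27.6 and 13 CPM in the tumors (log2 fold change 5.72, SE 1.25, adjusted p = 0.0286). Its relative Cbfa2t3 had 23.2 and 36.8 CPM in WT and 174 and 130.4 CPM in the tumors (log2 fold change 2.34, SE 0.59, adjusted p = 0.0356). Cbfb, which carries the fusion, had 121 and 116 CPM in WT and 150.4 and 164 CPM in the tumors and did not pass (log2 fold change 0.41, SE 0.29, adjusted p = 0.396). Myh11 had too few counts to be tested, and gene counts do not separate the fusion from either normal gene. Runx2 (adjusted p = 0.0959) and Runx3 (0.331) did not pass. No single omission among the 4 libraries spared the call of Runx1t1 (adjusted p 0.0839 to 0.202) and Cbfa2t3 (adjusted p 0.0956 to 0.237).

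Of the 19 genes of the GATA, TAL1 and LMO2 complex, all tested, 1 was higher and 1 lower, against 9 higher and 4 lower when the tumors were set against the MLL tumors. The calls against WT made 10.5% of the list, and 10.5% of all genes tested were called. Ldb1, the bridging protein of the complex, had 109 and 119 CPM in WT and 233 and 242 CPM in the tumors (log2 fold change 1.06, SE 0.29, adjusted p = 0.0466). Nfe2, a leucine zipper factor of red cells and megakaryocytes, had 358 and 302 CPM in WT and 82.4 and 131 CPM in the tumors (log2 fold change -1.63, SE 0.39, adjusted p = 0.0295). Gata3 was unlike between the tumors, with 0.632 and 0.955 CPM in WT and 16.8 and 55.7 CPM in the tumors, and did not pass (adjusted p = 0.0972). Whichever of the 4 libraries was left out, the call was lost for Ldb1 (adjusted p 0.123 to 0.234) and Nfe2 (adjusted p 0.0776 to 0.18). Among the MLL libraries, single omissions ended the call of Ldb1 (adjusted p 0.0506 to 0.0739 without AF9 tumor 47, AF9 tumor 42, ENL tumor RL or ENL tumor L).

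Several factors of granulocytes and monocytes were lower. Of 25 such factors, all tested, 10 were lower, 1 higher and 14 did not pass, with a median log2 fold change of -1.17. Cebpe, which late granulocytes need, had 557 and 439.9 CPM in WT and 1.85 and 0.581 CPM in the tumors (log2 fold change -8.66, SE 1.03, adjusted p = 0.00138). Cebpd, induced in mature myeloid cells, had 208 and 165 CPM in WT and 3.45 and 3.66 CPM in the tumors (log2 fold change -5.71, SE 0.61, adjusted p = 0.000796). Gfi1, a repressor that neutrophils require, had 55.6 and 59.1 CPM in WT and 0.721 and 1.05 CPM in the tumors (log2 fold change -6.02, SE 0.76, adjusted p = 0.00189). Both tumors were close to 0 for these 3 genes, which WT marrow expressed well. Cebpb (97.4 and 44 CPM in WT and 6.7 and 9.41 CPM in the tumors, log2 fold change -3.13, SE 0.47, adjusted p = 0.00385) and Jdp2, an AP-1 family repressor (52.5 and 45.5 CPM in WT and 2.01 and 4.996 CPM in the tumors, log2 fold change -3.81, SE 0.57, adjusted p = 0.00387), were lower too, and all 5 kept their calls. Cebpa, which opens the granulocyte fate, had 114 and 125 CPM in WT and 7.78 and 13.6 CPM in the tumors (log2 fold change -3.48, SE 0.64, adjusted p = 0.00948). Spi1, known as PU.1, had 359.7 and 244 CPM in WT and 75.3 and 90.9 CPM in the tumors (log2 fold change -1.86, SE 0.35, adjusted p = 0.0109), a smaller change. Irf8, a monocyte factor, had 123 and 109.97 CPM in WT and 13.6 and 16 CPM in the tumors (log2 fold change -2.97, SE 0.59, adjusted p = 0.0138). The member against the trend was Stat5a, a signal transducer of KIT and interleukin 3, with 30.3 and 33.1 CPM in WT and 130.1 and 109.9 CPM in the tumors (log2 fold change 1.92, SE 0.39, adjusted p = 0.0142). Set against the MLL tumors, 12 of the 25 were lower and 2 higher. The number called lower was 6 without WT 1, 8 without WT 2, 5 without tumor 30 and 5 without tumor 27. With 1 of the 4 libraries removed, whichever it was, edgeR no longer called Irf8 (adjusted p 0.0527 to 0.0974) and Stat5a (adjusted p 0.0585 to 0.115). Omission of 1 library ended the call of Cebpa (adjusted p 0.0804 without tumor 30 and 0.056 without tumor 27) and Spi1 (adjusted p 0.0683 without WT 1, 0.0855 without tumor 30 and 0.0702 without tumor 27).

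Hox genes gave a single call. Of 30 Hoxa, Hoxb, Meis, Pbx and Mecom genes, 23 were tested, 1 was higher and 0 lower (1 at an unadjusted p under 0.05, 1 with DESeq2 and 0 with limma voom). In all 4.35% were called, against 10.5% of all genes tested. The gene was Meis2, a partner of Hox proteins, with no count in WT, 5.41 and 34.1 CPM in tumors 30 and 27 and at most 0.0928 CPM in an MLL tumor, at least 107-fold above the WT floor. Hoxa9 had 6.08 and 3.12 CPM in WT and 3.35 and 9.06 CPM in the tumors, and Meis1 4.03 and 4.27 CPM in WT and 6.33 and 0.813 CPM in the tumors. Neither passed (adjusted p = 0.809 and 0.927). Against the MLL tumors, in which Hoxa9 ranged from 18.5 to 214 CPM, 5 of the list were lower. Single omissions also removed the call of Meis2 (adjusted p 0.0786 without WT 1, 0.0715 without WT 2 and 0.0908 without tumor 27).

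Stem and progenitor markers held few calls, though their median was below 0. Of 27, 25 were tested, 1 was higher, 3 were lower and 21 did not pass, and no call was kept. In all 16% were called, against 10.5% of all genes tested (3.53% higher and 6.92% lower). The median log2 fold change was -3.38 (-3.34 with genes at 0 in a group set at their bound), with 16 members below 0 and 9 above. At an unadjusted p under 0.05, 5 were higher and 12 lower, with DESeq2 3 and 8, and with limma voom 2 and 3. Prom1, a surface glycoprotein also called CD133, had 43 and 75.1 CPM in WT and 1.49 and 0.988 CPM in the tumors (log2 fold change -5.56, SE 1.07, adjusted p = 0.012). Cd9, a tetraspanin, had 258 and 106 CPM in WT and 7.78 and 1.57 CPM in the tumors (log2 fold change -5.28, SE 1.38, adjusted p = 0.0392). Sox4, a progenitor factor, had 13.7 and 32 CPM in WT and 1.44 and 1.05 CPM in the tumors (log2 fold change -4.19, SE 1.14, adjusted p = 0.0452). Ctnnal1, a catenin-like protein of stem cells, was higher and unlike between the tumors, at 1.82 and 3.87 CPM in WT and 39.8 and 10.6 CPM in the tumors (log2 fold change 3.14, SE 0.72, adjusted p = 0.025). Cd34, the sialomucin of progenitors, had 85.4 and 74.2 CPM in WT and 5.87 and 9.93 CPM in the tumors. Flt3, a cytokine receptor kinase, had 14.1 and 12.3 CPM in WT and 2.32 and 1.22 CPM in the tumors. Neither passed (adjusted p = 0.258 and 0.153). Leaving out any 1 of the 4 libraries ended the call of Cd9 (adjusted p 0.0743 to 0.203) and Sox4 (adjusted p 0.103 to 0.225). Single omissions ended the call of Prom1 (adjusted p 0.0527 without WT 2, 0.0765 without tumor 30 and 0.105 without tumor 27) and Ctnnal1 (adjusted p 0.189 without WT 1, 0.0734 without WT 2 and 0.221 without tumor 30). Omission of an MLL library from the shared fit ended the call of Cd9 (adjusted p 0.0548 without ENL tumor RL and 0.0517 without ENL tumor L) and Sox4 (adjusted p 0.0583 without AF9 tumor 42 and 0.0649 without ENL tumor RL).

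Cytokine receptors changed in both directions. Of 51 receptor chains, 50 were tested, 5 were higher and 11 lower, with a median of -1.31. Among the losses, Csf2ra, the chain that binds granulocyte-macrophage colony-stimulating factor, had 134 and 102 CPM in WT and 13.4 and 11.2 CPM in the tumors (log2 fold change -3.26, SE 0.3, adjusted p = 0.000498). Csf3r, the receptor for granulocyte colony-stimulating factor, had 97.9 and 152 CPM in WT and 6.8 and 2.21 CPM in the tumors (log2 fold change -4.79, SE 0.64, adjusted p = 0.0022). Tnfrsf1a, the main tumor necrosis factor receptor, had 175 and 152 CPM in WT and 8.5 and 9.47 CPM in the tumors (log2 fold change -4.18, SE 0.4, adjusted p = 0.000525). The groups were wide apart for all 3. Il18rap, a chain of the interleukin 18 receptor, had 71.5 and 94.6 CPM in WT and 1.13 and 0.813 CPM in the tumors (log2 fold change -6.4, SE 0.86, adjusted p = 0.00224). Il21r, an interleukin 21 receptor, had 13 and 10.3 CPM in WT and 0.773 and 0.29 CPM in the tumors (log2 fold change -4.43, SE 0.58, adjusted p = 0.00206). All 5 kept their calls. The RefSeq promoters of Csf2ra (chr19:61228369-61228668, minus strand) and Tnfrsf1a (chr6:125349473-125349772, plus strand) held no RUNX, GATA or C/EBP letters as spelled above. Both interferon gamma receptor chains were lower. Ifngr1 had 115 and 105 CPM in WT and 16.2 and 13.7 CPM in the tumors (log2 fold change -2.88, SE 0.49, adjusted p = 0.00688), and Ifngr2 had 38.8 and 47.9 CPM in WT and 14.3 and 14.6 CPM in the tumors (log2 fold change -1.58, SE 0.36, adjusted p = 0.0228). The number called lower was 9 without WT 1, 9 without WT 2, 9 without tumor 30 and 6 without tumor 27. None of the receptors called higher kept the call. The call was lost with any 1 of the 4 libraries left out for Ifngr2 (adjusted p 0.0708 to 0.126). The call depended on single libraries for Ifngr1 (adjusted p 0.0741 without tumor 27).

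Among the receptor gains, Il1rl1, the interleukin 33 receptor ST2 of mast cells, had 29.7 and 29.6 CPM in WT and 926 and 952 CPM in the tumors (log2 fold change 4.98, SE 1.17, adjusted p = 0.0264) and at most 3.06 CPM in an MLL tumor. Il9r, the receptor of a mast cell growth factor, had 0.632 and 0.704 CPM in WT and 158 and 192 CPM in the tumors (log2 fold change 8.01, SE 1.92, adjusted p = 0.0288) and 0.417 to 45.3 CPM in the MLL tumors. Csf2rb, the signalling chain shared by receptors of interleukins 3 and 5, had 81.9 and 188 CPM in WT and 397 and 535 CPM in the tumors (log2 fold change 1.79, SE 0.48, adjusted p = 0.0449). Csf2rb2, the copy that serves interleukin 3 in mice, had 13.9 and 37.7 CPM in WT and 151 and 199 CPM in the tumors (log2 fold change 2.76, SE 0.5, adjusted p = 0.0091). The 2 genes are near-identical, and how reads were shared between them is uncertain. Both signalling chains were thus higher while Csf2ra, which pairs with one of them, was lower. Il3ra, the chain that binds interleukin 3, had 27.3 and 21.1 CPM in WT and 10.2 and 8.71 CPM in the tumors and did not pass (adjusted p = 0.125). Socs1, a feedback inhibitor of this signalling, was the 1 higher gene of 17 STAT feedback genes, with 6.95 and 3.37 CPM in WT and 19.8 and 45.6 CPM in the tumors (log2 fold change 2.67, SE 0.72, adjusted p = 0.0449), and 0 were lower (3 at an unadjusted p under 0.05, 3 with DESeq2 and 1 with limma voom). In all 5.88% of the STAT list was called, against 10.5% of all genes tested. Cish, a target of STAT5, had 8.29 and 8.85 CPM in WT and 55.8 and 65.6 CPM in the tumors and did not pass (adjusted p = 0.0527). No single omission among the 4 libraries spared the call of Il1rl1 (adjusted p 0.0708 to 0.189), Il9r (adjusted p 0.0689 to 0.199) and Socs1 (adjusted p 0.0615 to 0.244). Left out singly, libraries ended the call of Csf2rb (adjusted p 0.268 without WT 1, 0.0977 without tumor 30 and 0.193 without tumor 27) and Csf2rb2 (adjusted p 0.0553 without WT 1 and 0.055 without tumor 27). In the shared fit, MLL omissions ended the call of Csf2rb (adjusted p 0.052 to 0.0621 without AF9 tumor 42, ENL tumor NO or ENL tumor RL) and Socs1 (adjusted p 0.0555 to 0.0614 without AF9 tumor 42, ENL tumor RL or ENL tumor L).

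Of 54 receptor tyrosine kinases, 26 were tested and 1 was called, with 0 lower (5 at an unadjusted p under 0.05, 3 with DESeq2 and 1 with limma voom). In all 3.85% were called, and 4.76% in the ERK list below, against 10.5% of all genes tested. Fgfr1, a fibroblast growth factor receptor, had 2.05 and 0.905 CPM in WT and 107 and 195 CPM in the tumors (log2 fold change 6.69, SE 0.74, adjusted p = 0.000969, kept), with 0.135 to 0.678 CPM in the MLL tumors (log2 fold change against them 8.65, adjusted p = 1.40e-05). Of 24 ERK feedback and target genes, 21 tested, Rasa1, which turns off Ras, was higher at 13 and 19.6 CPM in WT and 41.7 and 33.3 CPM in the tumors (log2 fold change 1.2, SE 0.32, adjusted p = 0.0418) and 0 were lower (3 at an unadjusted p under 0.05, 2 with DESeq2 and 0 with limma voom). Dusp6, a phosphatase induced by ERK, had 33.6 and 25.7 CPM in WT and 3.3 and 3.14 CPM in the tumors and did not pass (adjusted p = 0.0505). Whichever of the 4 libraries was left out, the call was lost for Rasa1 (adjusted p 0.067 to 0.268). Among the MLL libraries, single omissions ended the call of Rasa1 (adjusted p 0.0585 to 0.0669 without AF9 tumor 42, ENL tumor RL or ENL tumor L).

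Adhesion genes changed in both directions. Of 27 integrin chains, 21 were tested, 3 were higher and 5 lower. The leukocyte beta chain Itgb2 had 705 and 725 CPM in WT and 42 and 48.2 CPM in the tumors (log2 fold change -3.99, SE 0.61, adjusted p = 0.00403). Its partner Itgal, the alpha chain of LFA-1, had 136 and 192 CPM in WT and 27.1 and 20.9 CPM in the tumors (log2 fold change -2.77, SE 0.39, adjusted p = 0.00315), and Itgam fell with them. Itgb1, the beta chain of matrix receptors, went from 128 and 172 to 647 and 699 CPM (log2 fold change 2.17, SE 0.3, adjusted p = 0.00272). These calls were kept. Itgb7, a beta chain of mucosal mast cells and gut lymphocytes, had 67.5 and 43.5 CPM in WT and 289.8 and 733 CPM in the tumors (log2 fold change 3.2, SE 0.81, adjusted p = 0.0356). Itga9 had 2.53 and 2.87 CPM in WT and 29.1 and 35.4 CPM in the tumors (log2 fold change 3.58, SE 0.98, adjusted p = 0.0473). Itgb3, the platelet chain, was lower at 63.4 and 83.6 CPM in WT and 9.84 and 15.3 CPM in the tumors (log2 fold change -2.55, SE 0.57, adjusted p = 0.0215). Of 22 sialomucins, selectins and adhesion molecules, 18 were tested, 2 were higher and 4 lower. Besides Podxl, the sialomucin Spn, known as CD43, was higher at 279 and 355 CPM in WT and 795 and 1025 CPM in the tumors (log2 fold change 1.52, SE 0.39, adjusted p = 0.0373). Ncam1, known as CD56, had 28 and 55.5 CPM in WT and 0.206 and 0.174 CPM in the tumors (log2 fold change -7.72, SE 0.68, adjusted p = 0.000464, kept) and 77.8 to 205 CPM in the MLL tumors. Cd44, a hyaluronan receptor, had 289 and 327 CPM in WT and 89.3 and 115 CPM in the tumors (log2 fold change -1.59, SE 0.38, adjusted p = 0.0299). With 1 of the 4 libraries removed, whichever it was, edgeR no longer called Itga9 (adjusted p 0.128 to 0.265), Itgb3 (adjusted p 0.0672 to 0.142), Spn (adjusted p 0.0887 to 0.234) and Cd44 (adjusted p 0.1003 to 0.173). Omission of 1 library ended the call of Itgb7 (adjusted p 0.163 without WT 1, 0.163 without WT 2 and 0.176 without tumor 27). Without 1 MLL library the call was lost for Itgb7 (adjusted p 0.0506 without AF9 tumor 42), Itga9 (adjusted p 0.0602 without AF9 tumor 42 and 0.066 without ENL tumor RL) and Spn (adjusted p 0.0542 to 0.0575 without AF9 tumor 42, ENL tumor RL or ENL tumor L).

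Of 19 surface antigens discussed as markers of leukemia stem cells, 18 were tested, 2 were higher and 6 lower. Dpp4, the peptidase CD26, had 9.72 and 15.2 CPM in WT and 116 and 214 CPM in the tumors (log2 fold change 3.72, SE 0.4, adjusted p = 0.000811, kept). Havcr2, the receptor TIM-3, had 0.711 and 0.704 CPM in WT and 10.8 and 37 CPM in the tumors (log2 fold change 5.06, SE 1.31, adjusted p = 0.038). Cd33 had 134 and 144 CPM in WT and 1.44 and 1.22 CPM in the tumors (log2 fold change -6.7, SE 0.68, adjusted p = 0.000728, kept). Clec12a, an inhibitory lectin of myeloid cells, had 474 and 395 CPM in WT and 12.7 and 12 CPM in the tumors (log2 fold change -5.13, SE 0.48, adjusted p = 0.000498, kept). Pilrb1 (log2 fold change -4.36, adjusted p = 0.00471), Lair1 (log2 fold change -2.08, adjusted p = 0.0177) and Cd36 (log2 fold change -5.48, adjusted p = 0.026) were also lower. Il3ra did not pass, as given above. With the MLL tumors as reference 8 were lower and 3 higher. Each of the 4 omissions ended the call of Havcr2 (adjusted p 0.0589 to 0.225), Lair1 (adjusted p 0.0663 to 0.136) and Cd36 (adjusted p 0.0685 to 0.168). Single omissions also removed the call of Pilrb1 (adjusted p 0.056 without tumor 27).

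Granule genes of neutrophils and eosinophils made the deepest losses. Of 18 primary granule and promyelocyte genes, all tested, 14 were lower and 0 higher (0 at p under 0.05 unadjusted, with DESeq2 and with limma voom). Of 35 late granule and maturation genes, all tested, 27 were lower and 0 higher (0 by the same 3 counts). The medians were -5.35 (-5.21 with genes at 0 in a group set at their bound) and -8.09. Summed levels were 26046 and 24068 CPM in WT and 1281 and 1821 CPM in the tumors for the first list and 154250 and 93723 CPM in WT and 347 and 261 CPM in the tumors for the second. Padi4, which citrullinates histones, had 168 and 199.8 CPM in WT and 0.773 and 0.465 CPM in the tumors (log2 fold change -8.19, SE 0.8, adjusted p = 0.000601). Trem3, an activating receptor of granulocytes, had 411 and 278 CPM in WT and 2.27 and 1.92 CPM in the tumors (log2 fold change -7.36, SE 0.87, adjusted p = 0.00134). Mcemp1, a membrane protein of myeloid and mast cells, had 171 and 139 CPM in WT and 0.979 and 1.68 CPM in the tumors (log2 fold change -6.86, SE 1.06, adjusted p = 0.00431). The groups lay far apart for these 3. Hk3, the hexokinase of granulocytes, had 417 and 531 CPM in WT and 9.06 and 7.09 CPM in the tumors (log2 fold change -5.87, SE 0.42, adjusted p = 0.000299). Ms4a3, a protein of granulocyte and monocyte progenitors, had 629 and 492 CPM in WT and 3.71 and 6.91 CPM in the tumors (log2 fold change -6.72, SE 0.96, adjusted p = 0.00331). Prss57, a granule protease, had 210.4 and 167 CPM in WT and 3.66 and 5.98 CPM in the tumors (log2 fold change -5.29, SE 0.82, adjusted p = 0.00434). These 6 kept their calls, as did Clec12a, Igsf6, Cebpe and Csf3r. The RefSeq promoter of Padi4 (chr4:140774154-140774453, minus strand) held none of the 3 motifs.

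The abundant granule genes fell from high levels, and their calls were less stable than those above. Mpo, the peroxidase of azurophil granules, had 5463 and 7552 CPM in WT and 106 and 198 CPM in the tumors (log2 fold change -5.42, SE 1.42, adjusted p = 0.0401). Elane, neutrophil elastase, had 3997 and 3389 CPM in WT and 19.1 and 27.8 CPM in the tumors (log2 fold change -7.3, SE 1.35, adjusted p = 0.00996). Ltf, lactoferrin of the secondary granules, had 9090.5 and 13005 CPM in WT and 30.9 and 11.8 CPM in the tumors (log2 fold change -9.01, SE 2.39, adjusted p = 0.0417). S100a8 had 37752 and 18746 CPM in WT and 44.3 and 14 CPM in the tumors (log2 fold change -9.92, SE 2.05, adjusted p = 0.0158). In each case both tumors were far below both WT libraries, and the MLL tumors spread over a wide range, 411 to 6653 CPM for Mpo and 51.8 to 13326 CPM for Ltf. Cst7 and Calr did not pass (adjusted p = 0.871 and 0.914), Cst7 at 89.7 and 73.8 CPM in WT and 64.1 and 129 CPM in the tumors, Calr at 947 and 1064 CPM in WT and 771 and 1061 CPM in the tumors. The number called lower was 9 without WT 1, 9 without WT 2, 6 without tumor 30 and 5 without tumor 27 in the early list, and 10 without WT 1, 16 without WT 2, 8 without tumor 30 and 5 without tumor 27 in the late list. Against the MLL tumors 15 of 18 and 30 of 35 were lower. Leaving out any 1 of the 4 libraries ended the call of Mpo (adjusted p 0.107 to 0.208) and Ltf (adjusted p 0.0969 to 0.222). Single omissions ended the call of Elane (adjusted p 0.0851 without tumor 30 and 0.0854 without tumor 27) and S100a8 (adjusted p 0.0589 without WT 1, 0.0851 without tumor 30 and 0.126 without tumor 27). Omission of an MLL library from the shared fit ended the call of Ltf (adjusted p 0.0546 without AF9 tumor 42).

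Eosinophil granule genes were far lower in the tumors, several of them at 0. Of 11, 10 were tested, 6 were lower and 0 higher (0 at p under 0.05 unadjusted, with DESeq2 and with limma voom), with a median of -9.8 when genes at 0 are set at their bound. Epx, eosinophil peroxidase, lies on chromosome 11 from 87864000 to 87875536 (mm10) and had 1141 and 1023 CPM in WT and no count in either tumor, at least 6607-fold lower at the floor of 3 counts per tumor library. The ribonucleases Ear1 and Ear6 had 1625 and 780.1 and 1217 and 647 CPM in WT and no count in the tumors, at least 7342-fold and 5689-fold lower, with the caution that this gene family shares reads among near-identical copies. Ear2, of the same family, had 1395 and 591 CPM in WT and 5.41 and 15.2 CPM in the tumors and did not pass (adjusted p = 0.0605). Prg2, the major basic protein, had 14752 and 4957 CPM in WT 1 and WT 2, 0.412 and 0.116 CPM in the tumors and 1.86 to 27.7 CPM in the MLL tumors (log2 fold change -15.12, SE 1.89, adjusted p = 0.00181, kept, though DESeq2 did not call it). Alox15, a lipoxygenase, had 212 and 147 CPM in WT and 0.412 and 0.349 CPM in the tumors (log2 fold change -8.85, SE 0.94, adjusted p = 0.000796, kept). Receptors that eosinophils share with mast cells and basophils did not pass, with Ccr3 at 32.1 and 28.7 CPM in WT and 8.6 and 18 CPM in the tumors, Siglecf at 23.8 and 23.8 CPM in WT and 90.3 and 59.96 CPM in the tumors and Il5ra at 5.13 and 5.73 CPM in WT and 1.85 and 2.27 CPM in the tumors (adjusted p = 0.473, 0.377 and 0.554). Against the MLL tumors, which were low for most of these genes as well, 1 of the list was lower and 1 higher.

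**Figure D3:**
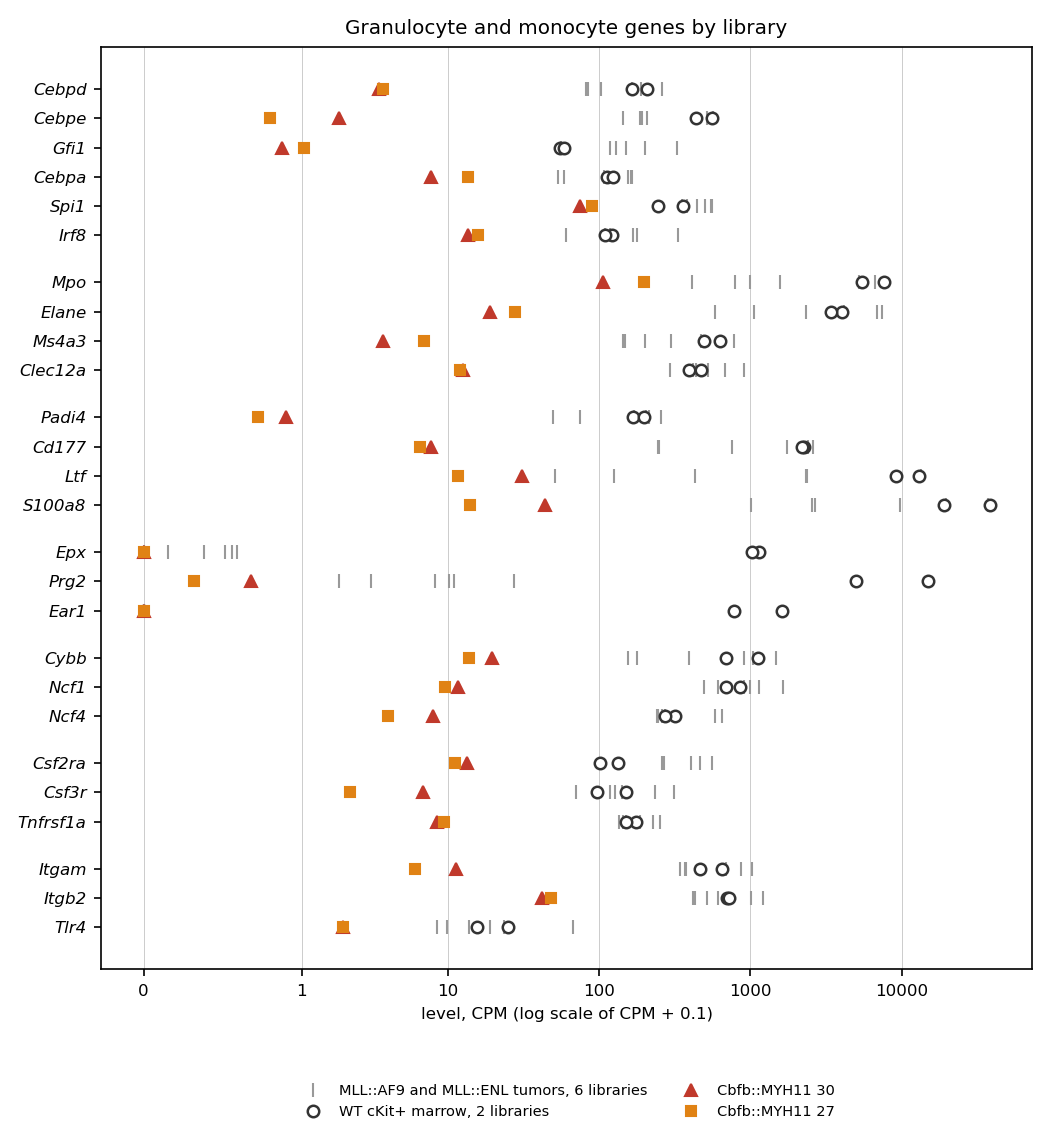
Level of 26 granulocyte and monocyte genes in each library (horizontal axis, CPM on a log scale of CPM + 0.1), with symbols for WT 1 and WT 2 (circles), tumor 30 (triangle), tumor 27 (square) and the 6 MLL tumors (grey ticks). Both tumors lie to the left of both WT libraries for every gene drawn, and Epx and Ear1 are at 0 in both. For Epx, Prg2 and Ear1 the MLL tumors are low as well.

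Effector and sensing genes of phagocytes followed. Of 9 NADPH oxidase genes, 5 were lower and 0 higher (0 at p under 0.05 unadjusted, with DESeq2 and with limma voom). Of the cytosolic subunits, Ncf1 had 692 and 850.5 CPM in WT and 11.6 and 9.64 CPM in the tumors (log2 fold change -6.18, SE 0.65, adjusted p = 0.000796, kept). Ncf4 had 319.7 and 275 CPM in WT and 7.93 and 4.01 CPM in the tumors (log2 fold change -5.64, SE 0.72, adjusted p = 0.00194, kept). Rac1 and Rac2, which serve many other pathways, did not pass (adjusted p = 0.354 and 0.529). Of 17 S100 genes 8 were tested and 4 were lower, with S100a11 at 725 and 345 CPM in WT and 11.8 and 15 CPM in the tumors (log2 fold change -5.32, SE 0.78, adjusted p = 0.00357, kept), and 0 were higher (0 by the same 3 counts). Of 33 Toll-like receptor and inflammasome genes 8 were lower and 0 higher (0 by the same 3 counts). Casp1, the inflammasome protease, had 23.5 and 21.7 CPM in WT and 2.58 and 1.39 CPM in the tumors (log2 fold change -3.5, SE 0.41, adjusted p = 0.00134, kept). Tlr4, the endotoxin receptor, had 15.7 and 25.2 CPM in WT and 1.96 and 1.98 CPM in the tumors (log2 fold change -3.38, SE 0.93, adjusted p = 0.0477). Of 38 chemoattractant receptors 33 were tested, 9 were lower and 1 higher. Ltb4r1, the leukotriene B4 receptor, had 507 and 391.9 CPM in WT and 3.14 and 6.51 CPM in the tumors (log2 fold change -6.54, SE 1.01, adjusted p = 0.00431, kept). Cxcr4, the marrow homing receptor, had 336 and 168 CPM in WT and 21.1 and 64.3 CPM in the tumors (log2 fold change -2.56, SE 0.58, adjusted p = 0.0232). The higher one was Ptgdr2, a prostaglandin D2 receptor of basophils, eosinophils and helper T cells, with no count in WT and 3.66 and 1.92 CPM in the tumors, at least 15.1-fold above the floor. The Toll-like count was 3 without WT 1, 2 without WT 2, 1 without tumor 30 and 1 without tumor 27, and the chemoattractant count 4 without WT 1, 4 without WT 2, 3 without tumor 30 and 2 without tumor 27. The call was lost with any 1 of the 4 libraries left out for Tlr4 (adjusted p 0.125 to 0.213) and Ptgdr2 (adjusted p 0.0923 to 0.129). The call depended on single libraries for Cxcr4 (adjusted p 0.145 without WT 1 and 0.114 without tumor 30). The call was lost on omission of an MLL library for Tlr4 (adjusted p 0.0532 to 0.0632 without ENL tumor NO, ENL tumor RL or ENL tumor L).

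Markers of other cells that spleen or marrow could hold were counted in the same libraries. Of 24 monocyte genes 9 were lower and 0 higher (0 at p under 0.05 unadjusted, with DESeq2 and with limma voom). Ly6c2 had 1264 and 661 CPM in WT and 37.8 and 44.6 CPM in the tumors (log2 fold change -4.55, SE 0.69, adjusted p = 0.00399, kept), and Fcgr3, a receptor for immunoglobulin G, had 234 and 207 CPM in WT and 13.6 and 28.2 CPM in the tumors (log2 fold change -3.4, SE 0.46, adjusted p = 0.00226, kept). Of 23 spleen and tissue macrophage genes 21 were tested and none was called in either direction (1 higher and 4 lower at an unadjusted p under 0.05, 1 and 1 with DESeq2, 1 and 0 with limma voom). Their levels summed to 1647 and 1353 CPM in WT and 612 and 958 CPM in the tumors. Of 22 class II and dendritic cell genes 1 was lower, H2-DMb1 (32.7 and 19.96 CPM in WT and 8.39 and 6.74 CPM in the tumors, log2 fold change -1.8, SE 0.43, adjusted p = 0.029), and 0 higher (0 by the same 3 counts). Of 22 B cell genes 5 were lower and 0 higher (0 by the same 3 counts), with sums of 7851 and 2320.5 CPM in WT and 314 and 291 CPM in the tumors. Vpreb1, part of the surrogate light chain of B cell precursors, had 50.8 and 25.5 CPM in WT and 0.361 and 0.232 CPM in the tumors (log2 fold change -6.97, SE 0.84, adjusted p = 0.0015, kept). Of 25 T and NK cell genes 1 was lower, Nkg7, at 193 and 178 CPM in WT and 3.3 and 4.3 CPM in the tumors (log2 fold change -5.61, SE 0.89, adjusted p = 0.00505), and 0 higher (0 by the same 3 counts). The sums were 286 and 232 CPM in WT and 16.3 and 7.73 CPM in the tumors. The class II list had 4.55% called and the T and NK list 4%, against 10.5% of all genes tested. Of 24 endothelial, stromal and muscle genes 14 were tested and none called (0 higher and 4 lower at an unadjusted p under 0.05, 0 and 3 with DESeq2, 0 and 0 with limma voom). No single omission among the 4 libraries spared the call of H2-DMb1 (adjusted p 0.0521 to 0.184). Left out singly, libraries ended the call of Nkg7 (adjusted p 0.0539 without tumor 27).

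Red cell genes differed between the WT libraries as well, by their sums. Of 27 globin and red cell genes 25 were tested and 1 was lower, Bpgm (617 and 208 CPM in WT and 30.9 and 35.6 CPM in the tumors, log2 fold change -3.63, SE 0.94, adjusted p = 0.0382), with 0 higher (0 by unadjusted p, DESeq2 and limma voom). The sums were 211874 and 46548 CPM in WT and 8419 and 14757 CPM in the tumors. In all 4% of the red cell list was called, against 10.5% of all genes tested. Of 22 heme synthesis and iron genes 4 were lower and 0 higher (0 by the same 3 counts). Uros, the enzyme that closes the porphyrin ring, had 71.3 and 43.1 CPM in WT and 10.9 and 11.1 CPM in the tumors (log2 fold change -2.38, SE 0.36, adjusted p = 0.00387, kept). Alas1, the first enzyme of the path outside red cells, had 269.6 and 278 CPM in WT and 17.4 and 14.9 CPM in the tumors (log2 fold change -4.09, SE 0.65, adjusted p = 0.00503). Of 24 megakaryocyte and platelet genes 23 were tested, 3 were higher and 3 lower. Gp1ba, the platelet receptor for von Willebrand factor, had 2.21 and 2.61 CPM in WT and 98.1 and 62.9 CPM in the tumors (log2 fold change 5.05, SE 0.47, adjusted p = 0.000502, kept). Rab27b, which docks secretory granules in platelets and mast cells, had 2.69 and 4.42 CPM in WT and 64 and 75.6 CPM in the tumors (log2 fold change 4.29, SE 0.58, adjusted p = 0.00473). F2r, a thrombin receptor, had 9.64 and 14 CPM in WT and 136 and 179.9 CPM in the tumors (log2 fold change 3.74, SE 0.65, adjusted p = 0.00744). The defining gene Pf4 had 42.8 and 26.9 CPM in WT and 1.91 and 0.871 CPM in the tumors, lower in each tumor, and did not pass (adjusted p = 0.0983), and Itga2b had 42.9 and 46.5 CPM in WT and 57.3 and 26.4 CPM in the tumors (adjusted p = 0.974). Whichever of the 4 libraries was left out, the call was lost for Bpgm (adjusted p 0.0601 to 0.222). Single libraries decided the call of Alas1 (adjusted p 0.061 without tumor 27), Rab27b (adjusted p 0.0524 without WT 1) and F2r (adjusted p 0.0861 without WT 1, 0.0523 without WT 2 and 0.0533 without tumor 27). Among the MLL libraries, single omissions ended the call of Bpgm (adjusted p 0.0533 without ENL tumor RL).

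Mx-1 Cre is induced through interferon, so interferon-stimulated genes were counted. Of 40 interferon-stimulated genes 10 were lower in the tumors and 0 higher (0 at p under 0.05 unadjusted, with DESeq2 and with limma voom), with a median of -2.62. Trim30a had 25.8 and 44.1 CPM in WT and 3.24 and 2.96 CPM in the tumors (log2 fold change -3.49, SE 0.58, adjusted p = 0.00617). Ddx58, a sensor of viral RNA, had 21.1 and 36.3 CPM in WT and 5.56 and 5.11 CPM in the tumors (log2 fold change -2.42, SE 0.4, adjusted p = 0.00622). Whether the WT mice had received Poly IC, and its part in this difference, was not tested. Of 19 class I antigen genes none was called (0 higher and 7 lower at an unadjusted p under 0.05, 0 and 4 with DESeq2, 0 and 0 with limma voom). The number of interferon-stimulated genes lower was 2 without WT 1, 2 without WT 2, 3 without tumor 30 and 0 without tumor 27. Omission of 1 library ended the call of Trim30a (adjusted p 0.0633 without tumor 27) and Ddx58 (adjusted p 0.061 without tumor 27).

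**Figure D4:**
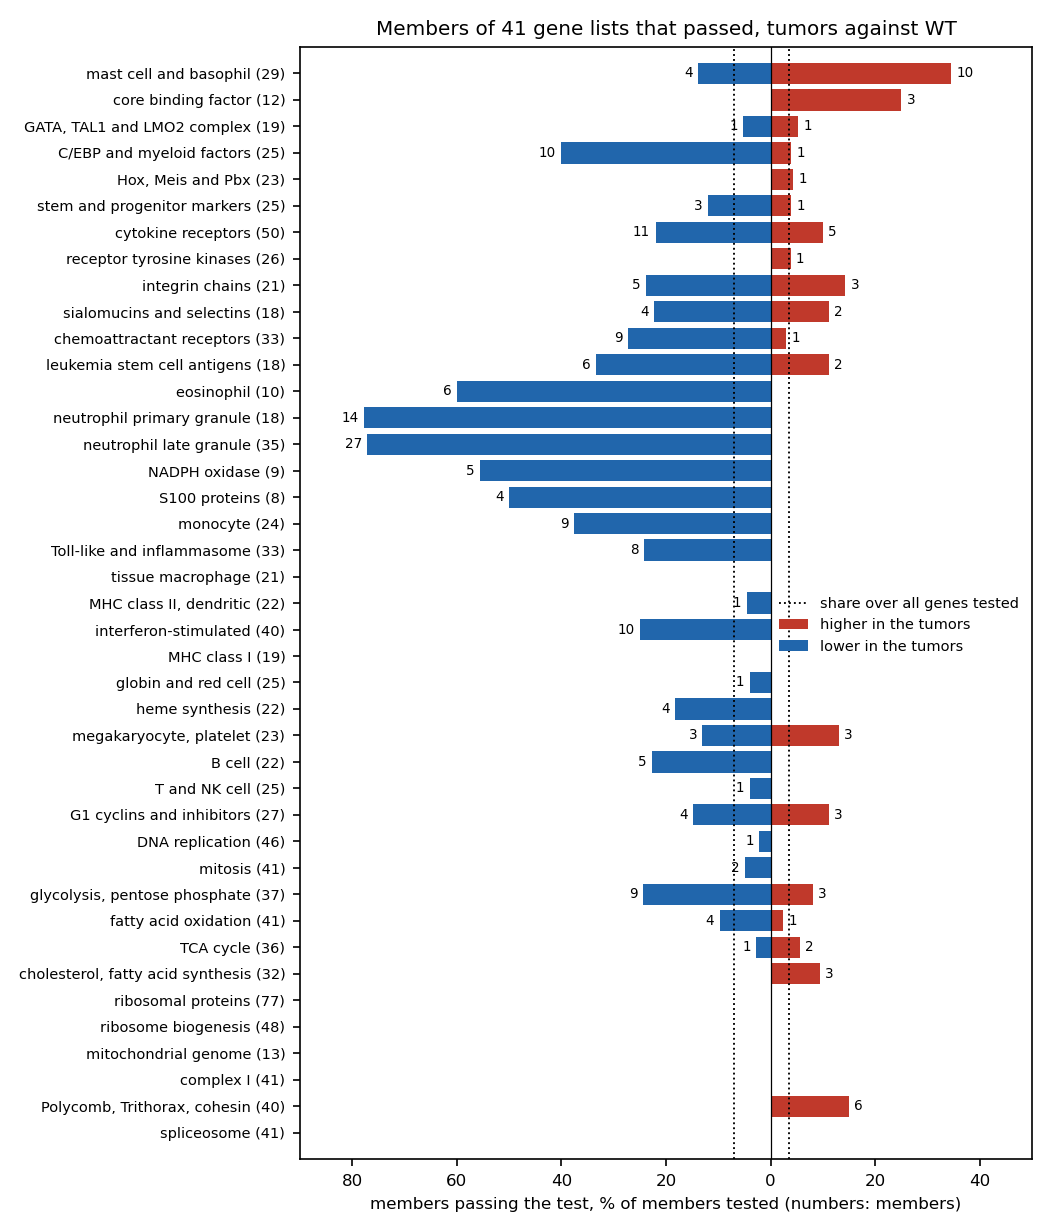
Members of 41 gene lists called higher (red, right) or lower (blue, left) in the tumors, as a percentage of members tested, with the number tested in parentheses and the number called beside each bar. Dotted lines are the shares over all genes tested, 3.53% higher and 6.92% lower. Late and primary neutrophil granule genes have the longest bars to the left, and mast cell genes the longest to the right.

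Among growth genes, those of the first cell cycle phase held the most calls. Of 27 cyclins, kinases and inhibitors of this phase, all tested, 3 were higher and 4 lower, 25.9% against 10.5% of all genes tested. The replication, mitosis, Myc network and BCL-2 lists below had 2.17%, 4.88%, 6.25% and 9.09%. Ccne1, cyclin E1, had 104 and 70.9 CPM in WT and 10.2 and 7.67 CPM in the tumors (log2 fold change -3.29, SE 0.35, adjusted p = 0.000796, kept). Ccnd3, a D cyclin, had 981 and 809.9 CPM in WT and 180.2 and 249 CPM in the tumors (log2 fold change -2.06, SE 0.5, adjusted p = 0.0305). Ccnd2 had 32.6 and 67.6 CPM in WT and 307 and 241 CPM in the tumors and did not pass (adjusted p = 0.131). Of the inhibitors, Cdkn1a was higher at 8.45 and 9.25 CPM in WT and 32.3 and 59.1 CPM in the tumors (log2 fold change 2.37, SE 0.42, adjusted p = 0.00851). Cdkn2a was higher at 0.158 and 0.503 CPM in WT and 6.49 and 5.46 CPM in the tumors (log2 fold change 4.1, SE 0.84, adjusted p = 0.0152). Of 46 replication genes 1 was lower, Cdc45 (77.5 and 72.6 CPM in WT and 33.4 and 24.3 CPM in the tumors, log2 fold change -1.38, SE 0.35, adjusted p = 0.0353), and 0 higher (1 at an unadjusted p under 0.05, 1 with DESeq2 and 0 with limma voom). Of 41 mitosis genes 2 were lower, Aurka (131 and 101 CPM in WT and 59.2 and 38.3 CPM in the tumors, log2 fold change -1.25, SE 0.29, adjusted p = 0.027) and Birc5 (203 and 113 CPM in WT and 66.6 and 47.2 CPM in the tumors, log2 fold change -1.47, SE 0.37, adjusted p = 0.0357), and 0 higher (1, 0 and 0 by the same counts). Of 16 Myc network and Myb genes 1 was lower, Mlx (74.7 and 52.6 CPM in WT and 23.8 and 25 CPM in the tumors, log2 fold change -1.38, SE 0.3, adjusted p = 0.02002). Of 24 BCL-2 family genes 22 were tested. Bbc3, the death inducer PUMA, was higher at 7.27 and 4.98 CPM in WT and 39.8 and 52.4 CPM in the tumors (log2 fold change 2.91, SE 0.49, adjusted p = 0.00688). Bnip3 was lower at 19.1 and 16.5 CPM in WT and 3.61 and 1.57 CPM in the tumors (log2 fold change -2.78, SE 0.51, adjusted p = 0.00961). Each of the 4 omissions ended the call of Ccnd3 (adjusted p 0.0788 to 0.174), Cdkn2a (adjusted p 0.0513 to 0.117) and Cdc45 (adjusted p 0.0943 to 0.213). Single omissions also removed the call of Cdkn1a (adjusted p 0.0847 without WT 1, 0.0599 without WT 2 and 0.0653 without tumor 27), Aurka (adjusted p 0.161 without WT 1, 0.0595 without WT 2 and 0.185 without tumor 27), Birc5 (adjusted p 0.233 without WT 1, 0.0889 without tumor 30 and 0.209 without tumor 27), Mlx (adjusted p 0.131 without WT 1, 0.113 without tumor 30 and 0.11 without tumor 27), Bbc3 (adjusted p 0.0591 without WT 2 and 0.0522 without tumor 27) and Bnip3 (adjusted p 0.0532 without WT 1 and 0.074 without tumor 27). An MLL library left out of the fit ended the call of Cdc45 (adjusted p 0.0529 without ENL tumor RL and 0.0508 without ENL tumor L) and Birc5 (adjusted p 0.0565 without ENL tumor RL and 0.0501 without ENL tumor L).

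Among the metabolic lists, glycolysis held the most calls. Of 38 glycolysis and pentose phosphate genes 37 were tested, 9 were lower and 3 higher. Of the hexokinases Hk3 was lower, as given above, and Hk1 higher at 192 and 333 CPM in WT and 720.2 and 841 CPM in the tumors (log2 fold change 1.57, SE 0.33, adjusted p = 0.0176). Pfkp, a phosphofructokinase, had 42.5 and 53 CPM in WT and 214 and 177 CPM in the tumors (log2 fold change 2.03, SE 0.27, adjusted p = 0.00222, kept). Pgd, of the pentose phosphate path that supplies NADPH, had 909 and 997 CPM in WT and 131 and 152 CPM in the tumors (log2 fold change -2.76, SE 0.37, adjusted p = 0.00221, kept). Of 42 fatty acid oxidation genes 41 were tested, 1 was higher and 4 lower. The higher one was Decr1, a mitochondrial reductase for unsaturated fatty acids, at 26 and 23.3 CPM in WT and 240.1 and 329 CPM in the tumors (log2 fold change 3.53, SE 0.43, adjusted p = 0.00166, kept). The electron transfer flavoprotein genes Etfa and Etfb had 115 and 99.8 CPM in WT and 103 and 127 CPM in the tumors, and 346 and 291 CPM in WT and 248 and 253 CPM in the tumors, and did not pass (adjusted p = 0.869 and 0.437). Of 34 cholesterol and fatty acid synthesis genes 32 were tested, 3 were higher and 0 lower (2 at an unadjusted p under 0.05, 0 with DESeq2 and 0 with limma voom). Scd2, a fatty acid desaturase, had 109 and 87.9 CPM in WT and 495 and 687 CPM in the tumors (log2 fold change 2.59, SE 0.47, adjusted p = 0.00917). Srebf1, the factor of fatty acid synthesis, had 65.6 and 65.1 CPM in WT and 172 and 278 CPM in the tumors (log2 fold change 1.79, SE 0.4, adjusted p = 0.0218). Lss, of sterol synthesis, had 8.21 and 7.84 CPM in WT and 26.4 and 41.8 CPM in the tumors (log2 fold change 2.09, SE 0.47, adjusted p = 0.0221). Of 38 TCA cycle genes 36 were tested, 2 were higher and 1 lower. The lower one was Idh1, a dehydrogenase of the cytosol that makes NADPH (log2 fold change -1.68, adjusted p = 0.00838). The fatty acid oxidation, cholesterol and TCA lists had 12.2%, 9.4% and 8.33% called, against 10.5% of all genes tested. Single omissions ended the call of Hk1 (adjusted p 0.125 without WT 1, 0.0543 without tumor 30 and 0.0976 without tumor 27), Scd2 (adjusted p 0.0711 without WT 1, 0.0746 without WT 2 and 0.0589 without tumor 27), Srebf1 (adjusted p 0.145 without WT 1, 0.105 without WT 2 and 0.139 without tumor 27), Lss (adjusted p 0.141 without WT 1, 0.109 without WT 2 and 0.143 without tumor 27) and Idh1 (adjusted p 0.0514 without WT 1, 0.0561 without tumor 30 and 0.0696 without tumor 27).

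Of the lysosomal, nucleotide, one-carbon, ribosomal, mitochondrial and spliceosome lists, the lysosomal one held the most calls. Of 36 lysosomal genes 35 were tested, 5 were lower and 1 higher, 17.1% against 10.5% of all genes tested. Neu1, a sialidase, was lower at 87.8 and 85.2 CPM in WT and 19.3 and 22.4 CPM in the tumors (log2 fold change -2.05, SE 0.29, adjusted p = 0.00312, kept). Of 33 nucleotide synthesis genes 1 was lower, Adssl1 (188 and 183 CPM in WT and 9.37 and 16.3 CPM in the tumors, log2 fold change -3.85, SE 0.42, adjusted p = 0.000961, kept), and 0 higher (0 at p under 0.05 unadjusted, with DESeq2 and with limma voom). Of 31 serine and one-carbon genes 28 were tested, with Slc25a32, a mitochondrial folate carrier, higher (log2 fold change 1.78, adjusted p = 0.0105) and Gcat lower (log2 fold change -3.31, adjusted p = 0.0138). The nucleotide and one-carbon lists had 3.03% and 7.14% called. None of 77 ribosomal protein genes was called (0 in either direction at an unadjusted p under 0.05, with DESeq2 or with limma voom), and none of 48 ribosome biogenesis genes (8 higher and 0 lower at an unadjusted p under 0.05, 4 and 0 with DESeq2, 0 with limma voom). None of 13 mitochondrial genome genes was called, although all 13 were above WT on average (5 higher and 0 lower at an unadjusted p under 0.05, 3 and 0 with DESeq2, 0 with limma voom), with mt-Co1 at 1989 and 3129 CPM in WT and 22569.7 and 10761 CPM in the tumors. Of the nuclear genes of complex I (41), complexes II to V (44), the mitochondrial ribosome (78) and protein import (39) none was called (0 higher and 5 lower, 1 and 1, 0 and 7, and 2 and 2 at an unadjusted p under 0.05, 0, 1, 1 and 1 in either direction with DESeq2, and 0 with limma voom). None of 41 spliceosome genes was called (1 higher at an unadjusted p under 0.05, 1 with DESeq2, 0 with limma voom). The call depended on single libraries for Slc25a32 (adjusted p 0.0828 without WT 1, 0.0691 without WT 2 and 0.0886 without tumor 27) and Gcat (adjusted p 0.0671 without WT 2 and 0.111 without tumor 27).

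Chromatin genes gave 6 increases, none of them kept. Of 41 Polycomb, Trithorax and cohesin genes 40 were tested, 6 were higher and 0 lower (2 at an unadjusted p under 0.05, 1 with DESeq2 and 0 with limma voom). In all 15% were called, against 10.5% of all genes tested (3.53% higher and 6.92% lower). The DNA methylation, fetal, immediate early and proteome lists below had 18.75%, 28.6%, 15.4% and 5.88%. Psip1, which tethers MLL to chromatin, had 52 and 71.3 CPM in WT and 148 and 118 CPM in the tumors (log2 fold change 1.11, SE 0.26, adjusted p = 0.0262). Aff4, a scaffold of transcription elongation, had 11.8 and 25.7 CPM in WT and 115 and 56.4 CPM in the tumors (log2 fold change 2.19, SE 0.47, adjusted p = 0.0188). Of 17 DNA methylation and TET genes 16 were tested. Tet2, which oxidizes methylcytosine, had 4.74 and 6.94 CPM in WT and 30.4 and 11.2 CPM in the tumors (log2 fold change 1.83, SE 0.45, adjusted p = 0.0326). Dnmt3l, a cofactor of the DNA methyltransferases, had 2.05 and 1.06 CPM in WT and no count in the tumors, at least 9.49-fold lower, and 2.89 to 10.1 CPM in the MLL tumors. Of 16 fetal genes 7 were tested and 2 were lower, Lin28a, an RNA-binding protein of stem and germ cells (550 and 793 counts in WT and 3 and 2 counts in the tumors, a ratio of 302 WT to tumors with a 95% counting interval of 129 to 932), and Arid3a (55.8 and 128 CPM in WT and 12.5 and 11.6 CPM in the tumors, log2 fold change -2.93, SE 0.47, adjusted p = 0.00531). Of 27 immediate early genes 26 were tested and 4 were lower, with Zfp36, which destabilizes cytokine messages, at 188 and 136 CPM in WT and 19.4 and 12.6 CPM in the tumors (log2 fold change -3.34, SE 0.56, adjusted p = 0.00647). A list of 34 genes taken from the proteome part of the study held 2 higher genes, Fam105a (log2 fold change 1.95, adjusted p = 0.0137) and Itpr1 (log2 fold change 2.66, adjusted p = 0.0229), and 0 lower (0 at p under 0.05 unadjusted, with DESeq2 and with limma voom). That list was chosen on tumors of the same study and is no independent evidence of its direction. No single omission among the 4 libraries spared the call of Psip1 (adjusted p 0.0518 to 0.193). Left out singly, libraries ended the call of Aff4 (adjusted p 0.141 without WT 1 and 0.122 without tumor 30), Tet2 (adjusted p 0.222 without WT 1, 0.0866 without WT 2 and 0.223 without tumor 30), Arid3a (adjusted p 0.0588 without tumor 27), Zfp36 (adjusted p 0.0721 without tumor 27), Fam105a (adjusted p 0.0525 without WT 1, 0.092 without WT 2 and 0.0898 without tumor 27) and Itpr1 (adjusted p 0.187 without WT 1, 0.0723 without WT 2 and 0.128 without tumor 30). In the shared fit, MLL omissions ended the call of Tet2 (adjusted p 0.0514 without ENL tumor RL).

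Across all genes tested, members of the lists included, the 12 largest increases and 12 largest decreases were taken. They came from called genes without overlap of the groups whose lower group averaged 10 counts or more. The increases were Podxl, Il9r, Fgfr1, Sapcd1, Rnf128, C77080, Ms4a2, Homer2, Padi3, Mrvi1, Akap2 and Slc7a8, from 6.05 to 10.07 on the log2 scale. Rnf128, a ubiquitin ligase known as GRAIL, had 4.82 and 2.11 CPM in WT and 151 and 508 CPM in the tumors (log2 fold change 6.58, SE 0.74, adjusted p = 0.00104). Slc7a8, a transporter of large neutral amino acids, had 11.3 and 15 CPM in WT and 865 and 883 CPM in the tumors (log2 fold change 6.05, SE 0.62, adjusted p = 0.000749). Sapcd1 had 2.13 and 0.855 CPM in WT and 113 and 169 CPM in the tumors (log2 fold change 6.59, SE 0.7, adjusted p = 0.000796). Mrvi1, a substrate of the cyclic GMP kinase, had 1.42 and 2.51 CPM in WT and 85.7 and 192 CPM in the tumors (log2 fold change 6.12, SE 0.86, adjusted p = 0.00308). These 4 kept their calls, as did C77080 (log2 fold change 6.51, adjusted p = 0.00226). The increases and decreases were chosen by these same values, so their adjusted p and kept calls add no support. Homer2, a scaffold of calcium signalling, had 0.553 and 1.56 CPM in WT and 109 and 70.1 CPM in the tumors (log2 fold change 6.36, SE 1.05, adjusted p = 0.0062). Padi3 had 2.13 and 0.905 CPM in WT and 36.5 and 174 CPM in the tumors (log2 fold change 6.14, SE 1.06, adjusted p = 0.00752). Akap2, an anchor of protein kinase A, had 1.18 and 1.46 CPM in WT and 96.3 and 82.7 CPM in the tumors (log2 fold change 6.07, SE 1.36, adjusted p = 0.022). The decreases were S100a9, S100a8, Camp, Ngp, Retnlg, Itgb2l, Mmp9, Ltf, Cebpe, Chil1, Pglyrp1 and Wfdc21, from -8.56 to -9.98, and all 12 belong to the granulocyte lists above. Camp, the antimicrobial cathelicidin, had 20250.3 and 6943 CPM in WT and 24.7 and 9.59 CPM in the tumors (log2 fold change -9.63, SE 1.95, adjusted p = 0.0147). Mmp9, a gelatinase, had 1583 and 1751 CPM in WT and 4.27 and 1.68 CPM in the tumors (log2 fold change -9.12, SE 1.96, adjusted p = 0.0187). Whichever of the 4 libraries was left out, the call was lost for Akap2 (adjusted p 0.0685 to 0.17) and Mmp9 (adjusted p 0.0558 to 0.138). Single libraries decided the call of Homer2 (adjusted p 0.0693 without WT 1), Padi3 (adjusted p 0.0562 without WT 1 and 0.0695 without WT 2) and Camp (adjusted p 0.0572 without WT 1, 0.0848 without tumor 30 and 0.121 without tumor 27).

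Genes were called gained where WT libraries had at most 3 counts and both tumors at least 20 CPM. Besides Tph1, Mcpt1 and Cma1 they were Wnt2, Nmnat2, Prrt4, Pax6, Acsbg1, Rarres1, Nbea, Gm17590, Car8 and Dnase2b. Wnt2, a secreted growth factor, had no count in WT or in any MLL tumor and 109 and 151 CPM in tumors 30 and 27, at least 705-fold above the floor of 3 counts per WT library. Pax6, a factor of eye and brain, had no count in WT and 20.9 and 78.7 CPM, at least 270.1-fold above it. Rarres1 had 27.8 and 49.7 CPM (at least 210.02-fold), Car8 36.5 and 25.3 CPM (at least 167-fold) and Dnase2b 32.4 and 22.3 CPM (at least 148-fold), and none of these 3 had a count in WT. Nmnat2, which makes NAD in neurons, had 0 and 3 counts in WT and 1247 and 1339 counts in the tumors, a ratio of 766 tumors to WT with a 95% counting interval of 262 to 3717. These 6 were called and kept, but the rule chose them by the same values, so their calls add no support. Genes lost by the reverse rule were, besides the eosinophil genes, Lin28a and Ldhb, AA467197, Ankrd22, Gpr84, Il1r2, Igll1, Vpreb3, 9830107B12Rik, Slco4c1, Cldn1 and Phyhip. Gpr84, a receptor for medium-chain fatty acids on myeloid cells, had 564 and 925 counts in WT and 0 and 1 counts in the tumors, a ratio of 1676 WT to tumors (300.3 to 66231). Vpreb3, a partner of the B cell precursor receptor, had 502 and 418 counts in WT and 1 and 2 counts in the tumors, a ratio of 345 WT to tumors (118 to 1677). Il1r2, the decoy receptor of interleukin 1, had 574 and 645 counts in WT and 2 and 3 counts in the tumors, a ratio of 274 WT to tumors (117 to 847). Cldn1 met the rule by its levels and was not called (adjusted p = 0.085). Omission of 1 library ended the call of Il1r2 (adjusted p 0.0804 without tumor 30 and 0.0815 without tumor 27).

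The genes of highest level in the tumors were judged by TPM, which divides by transcript length. The top 10 by mean TPM over both tumors were mt-Atp8, Rpl13a, mt-Nd3, Rplp1, mt-Co1, Gm28661, Eef1a1, Gm28437, Rpl32 and Rps14, all genes of mitochondria, ribosomes or elongation. Gm28661 and Gm28437 are copies of mitochondrial sequence and share reads with it, so their values are uncertain. The same 10 were the top by FPKM. mt-Atp8 had 28835 and 15972 TPM in tumors 30 and 27 and 1587 and 3625 TPM in WT 1 and WT 2, and Rpl13a 16524 and 24309 and 11019 and 11727 TPM. On the TPM scale Tph1 stood at 287 and 968, Ms4a2 at 651 and 486, Podxl at 144 and 143 and Fgfr1 at 35.3 and 53.9 in tumors 30 and 27. Among these 4, Fgfr1 was thus the lowest per length in both tumors.

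The 2 tumors were alike for most genes. Of 8235 genes with a mean of at least 10 CPM over the 2 tumors, 106 (1.29%) differed by over 2 on the log2 scale of levels. By the same rule 30 of 8465 (0.354%) did between WT 1 and WT 2. The median absolute difference was 0.32 between the tumors and 0.38 between the WT libraries. These values compare single libraries, so there is no test. Tumor 30 was higher for Tek, the angiopoietin receptor (34.5 and 0.29 CPM in tumors 30 and 27), its ligand Angpt1 (33.4 and 1.22 CPM), Myh10, a nonmuscle myosin (87.5 and 2.5 CPM), and Mki67, a proliferation marker (857 and 188 CPM). WT 1 and WT 2 had 0.474 and 1.21 CPM of Tek and 6.48 and 9.91 CPM of Angpt1. Tumor 27 was higher for Kcns1, a potassium channel subunit (2.42 and 185 CPM), Svs4, a seminal vesicle protein (1.44 and 99.3 CPM), Cd24a, a surface glycoprotein (34.7 and 421 CPM), Cyp11a1, which opens steroid synthesis (2.73 and 49.6 CPM), and Hoxc4 (7.06 and 60.02 CPM). Svs4 and Hoxc4 had no count in either WT library. Tph1 and Meis2, with called increases, were also several times higher in tumor 27.

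**Figure D5:**
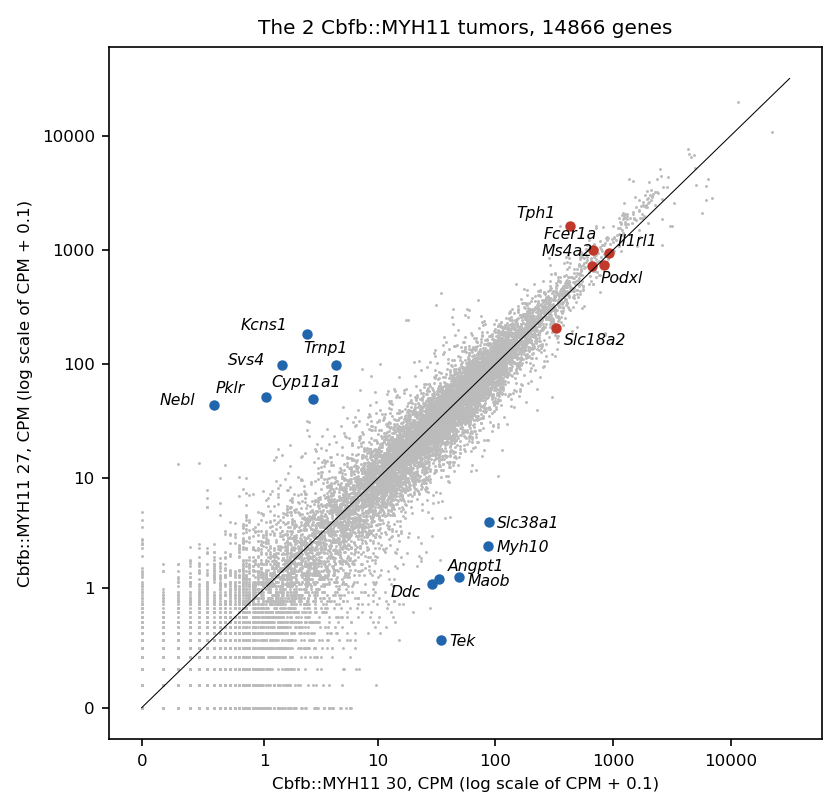
Level of 14866 genes in tumor 30 (horizontal axis) and tumor 27 (vertical axis), CPM on a log scale of CPM + 0.1, with a line of equal levels. Ms4a2, Podxl, Fcer1a, Slc18a2 and Il1rl1 (red) lie near the line and Tph1 above it, while the genes in blue differ strongly, 6 higher in tumor 30 and 6 in tumor 27.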

How the data were processed

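RNA was sequenced from bulk cells of 10 libraries, and the tests here bear on 2 Cbfb::MYH11 tumors and 2 WT marrows. The authors aligned reads with STAR and counted them with RSEM on mm10 (versions not given in the sources used here). They deposited, for each library, expected counts, TPM and FPKM per gene. Expected counts are estimated counts of reads that RSEM assigned to a gene. TPM and FPKM, as the authors deposited them, divide by transcript length and depth, and were used only to rank levels. Rows that shared a symbol were summed (50600 rows, 50507 symbols, 93 rows more than symbols) and counts were rounded.

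Genes were filtered with filterByExpr, scaled by TMM and tested with edgeR 4.0.16 in R 4.3.3 (glmQLFit and glmQLFTest, 4 groups in 1 fit, 6 residual degrees of freedom), with Benjamini-Hochberg adjustment at 0.05. The SE is the size of the log2 fold change divided by the square root of F. Each library came from its own mouse, as the study's text states. The numbers of the libraries pair no samples across groups. Alternatives were DESeq2 1.42.0, limma voom (limma 3.58.1), other scalings and filters, and each library left out. Intervals of count ratios cover counting error only, and the floor for a group at 0 was 3 counts per library. The code was tested on simulated counts, in which chosen genes were given a known change in the tumor libraries. It called 0 of 66 genes with an absolute log2 change of 1, 14 of 67 with 2 and 41 of 67 with 3. The changed genes were drawn only above a set mean count, so recovery of low genes was not measured. A gene that did not pass, or a list without calls, may thus have changed. Promoter sequences and gene names came from RefSeq tables of GRCm38.p6 and positions from GENCODE vM21. A symbol on several rows, and copies with shared reads, remain uncertain, since RSEM divides such reads by a model.

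Members, lists and tests were chosen with earlier results of these data known. Named genes were, in each list, up to 4 called genes of lowest adjusted p in each direction, members against the trend, and members shown because they did not pass, with the 12 largest changes each way, the genes gained or lost and the 10 of highest TPM. Cebpa, Spi1, Irf8, Jdp2, Mpo, Elane, Mcemp1, Prss57, Ifngr1, Ifngr2, Il18rap, Mitf, Il13, Ly6c2, Cd36, Tlr4, Cxcr4 and the genes unlike between the tumors were chosen after their values were seen. A few genes that the rule would name are not reported here.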

Additional observations from a re-analysis of the deposited data

How the results depend on the processing

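Counts of calls depended on the processing. Against WT, 1554 genes were called, 525 higher and 1029 lower. DESeq2 called 2884 (1173 and 1711) and gave no adjusted p to 123 genes, a fit of the 4 libraries alone 2789 (1056 and 1733), and an adjusted p under 0.01 left 491 (122 and 369). The cause of these shifts was not tested. Other scalings and filters and limma voom gave 1209 to 2129. Leaving out single libraries gave 412 to 1983 in all, 71 to 709 higher and 267 to 1274 lower, lowest without tumor 27 in all (412) and lower, and without WT 1 in higher. Against the MLL tumors, leaving out single libraries gave 1439 to 3956 of 3806, 764 to 1896 of 1847 higher and 675 to 2064 of 1959 lower, and an adjusted p under 0.01 left 1893 (972 and 921). None of the 1554 genes changed sign in any alternative. This was largely fixed beforehand, because in each of them both tumors lay on one side of both WT libraries. Of the calls 33.8% were higher with TMM, 36.7% with RLE, 39.5% with no scaling factor, which moved the median of all genes by 0.33 on the log2 scale, 40.7% with DESeq2, 43.1% with limma voom and 14.3% without WT 1. No paired analysis was possible because the Cbfb::MYH11 libraries share no replicate number with another group. With 2 libraries a group, differences of low genes rest on few counts, and a count of 0 allows levels up to the floor of 3 counts per library.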

Other observations

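Genes of amine metabolism outside the lists were examined after Tph1 and Slc18a2 had been seen, and are given as values. Ddc, which completes the synthesis of serotonin, had 0.395 and 0.503 CPM in WT and 29.1 and 1.1 CPM in the tumors. It was thus near the WT level in tumor 27, the tumor with the higher level of Tph1. Maob, which breaks down amines, had 0.079 and 0.453 CPM in WT and 49 and 1.28 CPM in the tumors, again high in tumor 30 only. Maoa, its relative, had 7.66 and 7.99 CPM in WT and 0.464 and 0.407 CPM in the tumors, and Hnmt, which inactivates histamine, 16.7 and 15.7 CPM in WT and 0.206 and 0 CPM in the tumors, both below WT in each tumor. Tph2, the brain form of tryptophan hydroxylase, had no count in any of the 4 libraries.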
